A study of Mus musculus with 8 samples.

Results

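The Ikaros family of zinc finger transcription factors, Ikzf1 (Ikaros), Ikzf2 (Helios), Ikzf3 (Aiolos), Ikzf4 (Eos) and Ikzf5 (Pegasus), was followed in haematopoietic progenitors and pre-B cells of Dido1∆E16 mice. The members were taken by gene symbol and make up 5 of the 26275 genes that carry a symbol in the RNA or peak files. They hold 20 of the 63753 transcripts listed in the pre-B libraries. In LSK cells MACS2 peaks assigned to them number 12 of 27352 (WT replicate 1), 27 of 57739 (WT replicate 2), 7 of 13208 (Dido1∆E16 replicate 1) and 5 of 16329 (Dido1∆E16 replicate 2).

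Accessible chromatin was mapped by Omni-ATAC-seq in LSK cells (Lin-, Sca1+, cKit+ progenitors), with 2 WT and 2 Dido1∆E16 libraries. RNA came from sorted pre-B cells (B220+ and IgM-), again with 2 WT and 2 Dido1∆E16 libraries. Dido1∆E16 animals were adult C57BL/6 mice of genotype Dido1 flE16/∆E16 that also carried R26R-EYFP and iCreVav1, so that 1 allele lacked exon 16 in every tissue and Cre, driven from Vav1 in blood cells, removed it from the other. The littermates called WT were Dido1 flE16/+ and carried the same R26R-EYFP and iCreVav1 alleles. They are therefore not free of Cre or of a floxed Dido1 allele. Each pre-B library came from a pool of mice. The labels do not say whether the LSK replicates came from separate animals, so that p-values measure the spread between these libraries. No LSK RNA was analysed here, so that the LSK label was not checked against marker RNAs. Paired values below are those of replicates 1 and 2 of a genotype, in that order.

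Ikaros factors bind DNA through a cluster of zinc fingers near the N-terminus and pair with each other through further fingers at the C-terminus. Isoforms without some of the N-terminal fingers can still pair but bind DNA poorly. Ikaros acts from the earliest progenitors on, primes lymphoid genes and recruits the NuRD remodelling complex. Aiolos is largely a lymphoid factor that appears as B-cell precursors mature, and both factors restrain the surrogate light chain genes once the pre-B cell receptor has signalled. Helios and Eos are better known from progenitors and T cells, and Pegasus is the most divergent member.

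Ikaros proteins favour DNA with the core TGGGAA, which also holds GGAA, the core of ETS factors. It was searched on both strands in the central 200 bases of every LSK region shared by the WT libraries. A match was found in 6 of the 12 regions of Ikzf1 and Ikzf2, against 3899 of all 26327 shared regions (14.8%). Matches lay in 5 of the 7 Ikzf1 windows and in 1 of the 5 Ikzf2 windows. Shared regions without a Dido1∆E16 peak held the core in 15.8% of cases and those with one in 14.04%. A match describes the letters and is no evidence of binding. RefSeq promoters (250 bases before to 50 after a start) were listed for Ikzf1 and Ikzf5 only among the members. None of these 3 windows held the core, which 25.6% of 32851 promoters did. The 5 windows below are shown because the LSK comparison turns on them, and none overlaps an annotated exon. They were read from GRCm38 on the strand of the gene, and capitals mark TGGGAA or its complement TTCCCA. A window said to have a peak in all 4 libraries overlaps a peak in each, which need not span it. In the first window the Dido1∆E16 peaks end by chr11:11657432, before both marked matches.
Ikzf1, upstream intergenic, chr11:11657350-11657549, plus strand, with a peak in all 4 libraries: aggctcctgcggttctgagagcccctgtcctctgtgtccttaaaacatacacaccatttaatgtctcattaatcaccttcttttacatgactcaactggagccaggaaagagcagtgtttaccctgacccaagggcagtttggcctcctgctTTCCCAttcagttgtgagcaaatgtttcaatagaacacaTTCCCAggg
Ikzf1, intron 7, chr11:11763378-11763577, plus strand, with a peak in all 4 libraries: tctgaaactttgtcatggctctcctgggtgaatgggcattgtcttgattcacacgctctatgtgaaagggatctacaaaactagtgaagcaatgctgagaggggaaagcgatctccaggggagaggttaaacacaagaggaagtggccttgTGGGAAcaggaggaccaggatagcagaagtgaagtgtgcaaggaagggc
Ikzf1, intron 7, chr11:11766259-11766458, plus strand, with a MACS2 peak in the WT libraries only: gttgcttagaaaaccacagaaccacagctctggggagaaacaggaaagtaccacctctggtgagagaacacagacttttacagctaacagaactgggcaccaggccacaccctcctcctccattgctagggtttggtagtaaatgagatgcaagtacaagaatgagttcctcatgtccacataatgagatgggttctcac
Ikzf2, promoter, chr1:69687670-69687869, minus strand, with a MACS2 peak in the WT libraries only: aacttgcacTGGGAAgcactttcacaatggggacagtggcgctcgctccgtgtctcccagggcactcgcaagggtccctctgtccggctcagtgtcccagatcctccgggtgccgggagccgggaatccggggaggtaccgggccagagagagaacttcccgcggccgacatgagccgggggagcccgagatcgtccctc
Ikzf2, upstream intergenic, chr1:69689010-69689209, minus strand, with a peak in all 4 libraries: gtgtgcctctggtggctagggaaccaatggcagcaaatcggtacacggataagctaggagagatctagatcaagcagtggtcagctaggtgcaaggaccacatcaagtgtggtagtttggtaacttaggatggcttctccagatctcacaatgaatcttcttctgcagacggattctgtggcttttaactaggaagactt

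The genotype of the pre-B libraries was first checked at Dido1 itself. TPM is a measure of transcript abundance corrected for transcript length and library size. Coverage of its last exon (exon 16 of uc008ojq.2, chr2:180657963-180662583), scaled to TPM, was 24.6 and 21.8 in WT replicates 1 and 2. It was 0.295 and 0.0843 in Dido1∆E16 replicates 1 and 2, so that the deleted exon was nearly absent as labelled. The gene sum of Dido1 was 44.3 and 46.0 TPM in WT cells, against 81.6 and 87.2 TPM in Dido1∆E16 cells (log2 fold change 0.89, SE 0.13, limma adjusted p = 0.191).

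For the family, TPM was summed over the transcripts of each gene. Ikzf1 and Ikzf3 were among the more abundant genes of pre-B cells, with mean gene sums above 98.3% and 97.5% of the 11888 gene sums tested. Ikzf5 was low, and Ikzf4 and Ikzf2 were listed at or near 0. Aiolos RNA was above the WT range in both Dido1∆E16 libraries, whereas Ikaros RNA differed little. Of the 3 members tested (a mean of at least 1 TPM), none passed the test, which asked for a limma p under 0.05 after Benjamini-Hochberg adjustment and a log2 fold change of 0.6 or more in size. Of all gene sums, 6 passed (0.0505%). The unadjusted limma p was 0.0182 for Ikzf3, 0.0337 for Ikzf5 and 0.315 for Ikzf1, and 1385 gene sums had one under 0.05. Ikzf5 passed the filter on the mean through its WT values alone, so that its p-value is not read as a test.

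The Ikzf1 gene sum was 630 and 584 TPM in the WT libraries (replicates 1 and 2) and 519 and 580 TPM in the corresponding Dido1∆E16 libraries. The second Dido1∆E16 value lay just under the lower WT value. The log2 fold change was -0.14 (SE 0.13, limma adjusted p = 0.707). The Ikzf3 gene sum was 355 and 371 TPM in WT cells, against 481 and 584 TPM in Dido1∆E16 cells. Each Dido1∆E16 library thus lay above both WT libraries, a pattern shared by 27.1% of the gene sums tested. Means were 363 ± 10.9 TPM in WT and 533 ± 72.9 TPM in Dido1∆E16 cells (SD, n = 2), which is 1.47-fold. The log2 fold change of 0.55 (SE 0.15) was larger than 83.3% of those tested, with a limma adjusted p of 0.323.

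In WT cells Ikzf1 exceeded Ikzf3 in both libraries, and in Dido1∆E16 cells the ranges of the 2 genes overlapped. The ratio of Ikzf3 to Ikzf1 within a library does not depend on how libraries are scaled. It was 0.564 and 0.635 in the WT libraries (replicates 1 and 2) and 0.926 and 1.01 in the corresponding Dido1∆E16 libraries. The genotypes did not overlap. An exact permutation test (two-sided) had p = 0.333, and 2 libraries against 2 cannot go lower.

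Isoforms differed in how they contributed. The Ikzf3 estimate was divided between a full-length transcript of 8 exons (uc007lgm.1, chr11:98464693-98546031, minus strand) and a 3′ transcript of 2 exons (uc007lgl.1). The latter lacks the exons of the DNA-binding fingers but holds exon 7 and the last exon. The full-length transcript was at 165 and 170 TPM in WT cells, against 282 and 353 TPM in Dido1∆E16 cells. Its log2 fold change was 0.91 (SE 0.15), larger than 85.4% of the transcripts tested, and its limma adjusted p was 0.295. Of 16372 transcripts tested, 25 passed (0.153%), and 23.4% were higher in both Dido1∆E16 libraries. The 3′ transcript stood at 189 and 201.1 TPM in WT cells, against 199 and 231 TPM in Dido1∆E16 cells, where the genotypes overlapped. The full-length form accordingly held 46.6% and 45.7% of the gene sum in WT libraries and 58.6% and 60.4% in Dido1∆E16 libraries. These shares rest on how reads were divided between the 2 forms. Coverage of exon 7, summed over all Ikzf3 transcripts, was 153 and 146 in WT cells, against 270 and 296 in Dido1∆E16 cells. The WT values lie below those given to the 3′ transcript alone, so that its level is uncertain. A single-exon transcript within an intron, uc029rny.1, stayed under 1 TPM, and uc007lgn.1 was listed at 0.

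**Figure D1:**
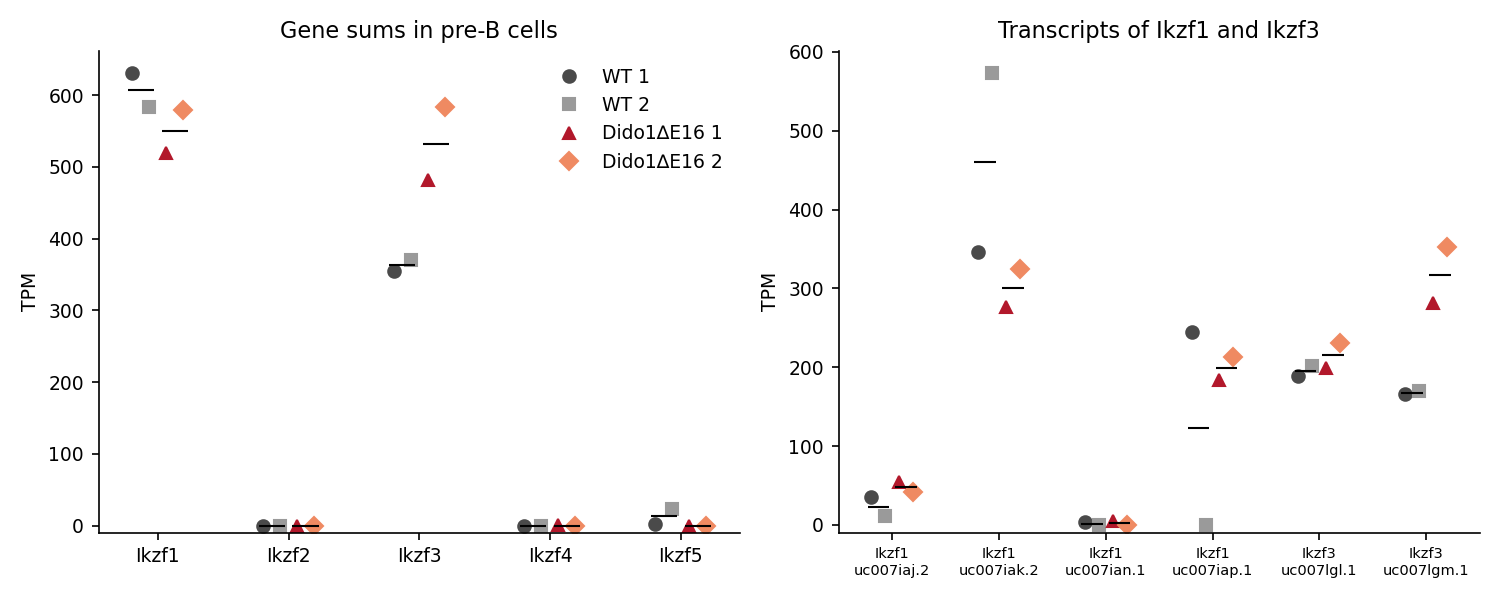
TPM of the 5 family genes (left) and of the tested Ikzf1 and Ikzf3 transcripts (right) in the 4 pre-B libraries, with each symbol a library and each short line the mean of a genotype. Ikzf3 and its full-length transcript uc007lgm.1 (165 and 170 against 282 and 353 TPM) are the values that separate the genotypes most clearly, while among Ikzf1 transcripts uc007iak.2 is highest in every library and uc007iap.1 is at 0 in WT replicate 2.

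Coverage per exon does not depend on how reads are divided among isoforms, since it was summed over all transcripts of the gene. Over exons 2 to 7 of Ikzf3, which include the exons of its DNA-binding fingers, coverage on the TPM scale was 200 and 241 in WT cells, against 411 and 492 in Dido1∆E16 cells. All 6 exons were higher in both Dido1∆E16 libraries, and the ratio of means was 2.05. By the coverage given to each transcript on its own, every inner exon was higher in both Dido1∆E16 libraries for 6.91% of 12489 transcripts. These were the tested transcripts with at least 4 exons, and uc007lgm.1 was among those with this pattern. Unlike the sums above, that measure depends on how reads were divided. Leaving out any of the libraries kept the ratio between 1.86 and 2.26. The first exon (76.0 and 70.9 against 172 and 188) had a ratio of 2.45. The last exon, which like exon 7 is also part of the 3′ transcript, had a ratio of 1.38 (424 and 443 against 532 and 662).

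Ikzf1 differed from Ikzf3 over its inner exons. Over exons 2 to 7 its coverage was 463 and 441 in WT cells, against 445 and 526 in Dido1∆E16 cells, and the genotypes overlapped. Its last exon, which encodes the C-terminal pairing fingers and most of the 3′ end, was at 668 and 662 in WT cells, against 505 and 580 in Dido1∆E16 cells, a ratio of 0.816. In both genes the last exon thus had a lower ratio than exons 2 to 7. For Ikzf1 it was 0.816 against 1.07, and for Ikzf3 it was 1.38 against 2.05. Whether the libraries differ in this way at other genes was not tested. Exon 4, which encodes an N-terminal finger and is skipped in known short isoforms, stood at 41.6% and 31.4% of the mean of its neighbours in WT cells, against 36.7% and 31.9% in Dido1∆E16 cells. Exon 4 usage therefore varied as much within WT as between genotypes. The ratio of Ikzf3 to Ikzf1 over exons 2 to 7 was 0.431 and 0.547 in WT cells, against 0.923 and 0.935 in Dido1∆E16 cells (exact permutation p = 0.333, the smallest possible).

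**Figure D2:**
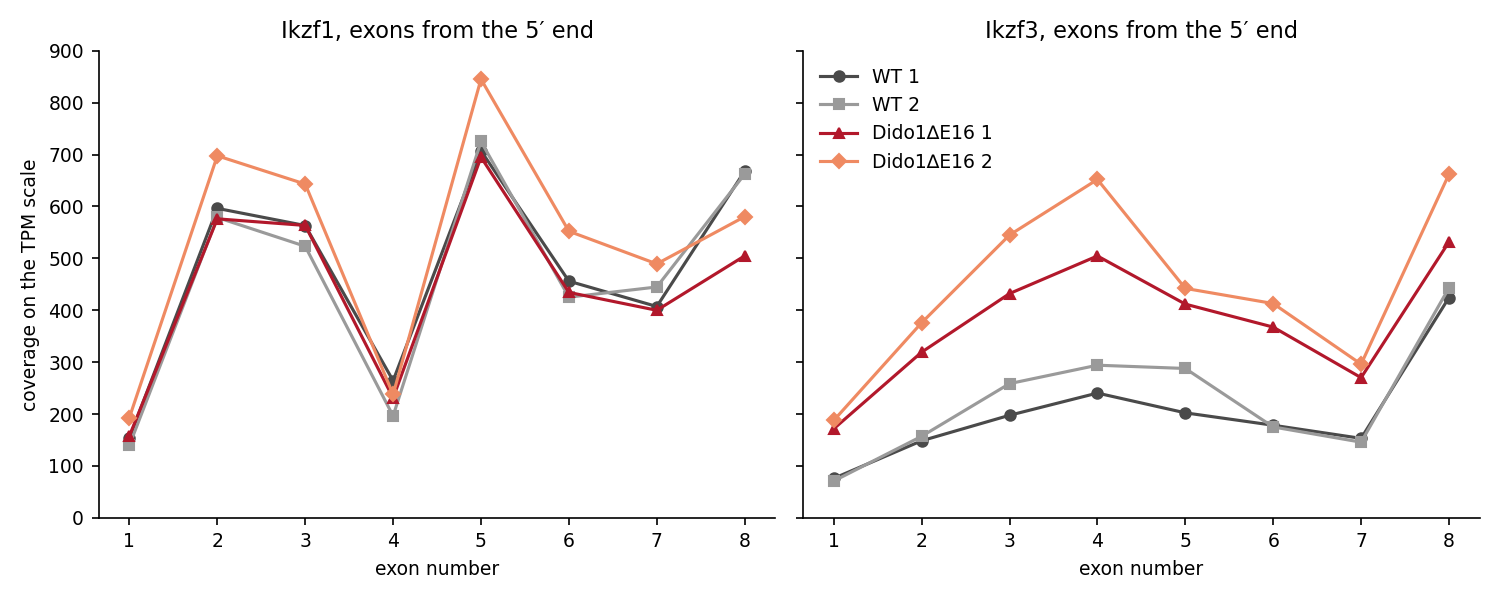
Coverage of each exon of Ikzf1 (left) and Ikzf3 (right), counted from the 5′ end and scaled to TPM, with a line for each pre-B library. The Dido1∆E16 lines run above the WT lines at every Ikzf3 exon, whereas the genotypes overlap at all but 1 of the 6 inner exons of Ikzf1.

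Of 9 Ikzf1 transcripts listed, 4 had a value above 0. The 8-exon transcript uc007iak.2 (chr11:11685925-11772926, plus strand) was at 347 and 573 TPM in WT cells, against 277 and 324 TPM in Dido1∆E16 cells (log2 fold change -0.57, SE 0.30, limma adjusted p = 0.720). That fold change was -0.93 without WT replicate 1 and -0.21 without WT replicate 2. The alternative transcript uc007iap.1, which starts at a downstream first exon, was at 245 and 0 TPM in WT cells, against 184 and 214 TPM in Dido1∆E16 cells. In WT replicate 2, uc007iak.2 thus made up 98.2% of the gene sum, against 53.3% to 55.9% in the other 3 libraries. The short form uc007iaj.2, which lacks exon 4 and the last exon, was at 35.0 and 10.8 TPM in WT cells, against 54.4 and 42.3 TPM in Dido1∆E16 cells. The Dido1∆E16 values were higher, with a log2 fold change of 1.25 (SE 0.64, limma adjusted p = 0.715) that was 2.06 without WT replicate 1 and 0.44 without WT replicate 2. It held 5.56% and 1.84% of the Ikzf1 gene sum in WT cells, against 10.5% and 7.29% in Dido1∆E16 cells. The last tested form, uc007ian.1, was at 3.43 and 0 TPM in WT cells, against 4.45 and 0 TPM in Dido1∆E16 cells.

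Ikzf5 was listed at 2.55 and 23.5 TPM in WT replicates 1 and 2 and at 0 in both Dido1∆E16 libraries. Its only listed transcript, uc009kbj.1 (chr7:131388649-131410478, minus strand), shares exon 3 and most of exon 4 with a transcript on the other strand, uc057cbd.1, which overlaps Pstk. That transcript was at 21.9 and 9.31 TPM in WT cells, against 21.98 and 21.1 TPM in Dido1∆E16 cells. Reads in the shared part cannot be told apart without strand, which the sources used here do not give. Exon 2 of Ikzf5, outside the shared part, had a coverage of 25.3 and 22.7 in WT libraries and was listed at 0 in both Dido1∆E16 libraries. Among the gene sums tested, 15.6% were lower in both Dido1∆E16 libraries, and 68 (0.572%) were listed at 0 in both. A value listed at 0 can be an estimate that failed. Ikzf5 passed the filter of a mean of at least 1 TPM through its WT values alone, so that its limma adjusted p of 0.374 is not read as a test. The fitted log2 value of -3.22 depends on the pseudocount and is no bound. It was -4.61 without WT replicate 1 and -1.83 without WT replicate 2. Ikzf4 was listed at 0.24 TPM in Dido1∆E16 replicate 1 and at 0 in the other 3 libraries, and Ikzf2 at 0 in all 4.

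Some symbols came from overlap with GENCODE genes, since the tables of the authors name no gene for uc007iap.1 and uc007lgl.1. With the symbols of the authors alone, the Ikzf1 sum was 385 and 584 TPM in WT cells, against 336 and 366 TPM in Dido1∆E16 cells (log2 fold change -0.43, SE 0.24, limma adjusted p = 0.645). The Ikzf3 sum then rested on the full-length transcript, with a log2 fold change of 0.91 and a limma adjusted p of 0.271.

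Genes of the pre-B stage were present in all 4 libraries. The small pre-B markers Rag1, Rag2, Il2ra, Cd79a and Cd79b summed to 8423 and 10060 TPM in WT cells, against 9206 and 9704 TPM in Dido1∆E16 cells, with Cd79b the most abundant. All 5 overlapped between genotypes, with a median log2 fold change of 0.012. The 7 pro-B and large pre-B markers, led by Vpreb1, summed to 753 and 412 TPM in WT cells, against 2811 and 1743 TPM in Dido1∆E16 cells, and 6 of the 7 were higher in both, against 27.1% of all gene sums tested. They were thus higher in the same libraries as Ikzf3, and their part in its difference was not tested. In sorted bulk cells, more cells of a type and more RNA per cell cannot be told apart. The 8 neutrophil and monocyte markers, led by S100a9, summed to 244 and 2211 TPM in WT cells, against 1069 and 9647 TPM in Dido1∆E16 cells. The 5 erythroid markers listed, led by Hba-a2, gave 300.9 and 922 TPM in WT cells, against 677 and 8641 TPM in Dido1∆E16 cells. Both were highest in Dido1∆E16 replicate 2, where Ikzf3 was also highest, and their part in its difference was not tested. Without that library the log2 fold change of Ikzf3 was 0.41. Mature B markers, led by Ms4a1, gave 840 and 872 against 825 and 988 TPM, with Ighd listed at 0. Plasma and switched B markers, led by Irf4, gave 728 and 908 against 732 and 641 TPM. Within that list Ighg2b, a heavy chain constant gene of switched B cells, was at 4.83 and 0 TPM in WT cells, against 66.7 and 47.1 TPM in Dido1∆E16 cells (log2 fold change 4.56, SE 0.92, limma adjusted p = 0.238). Sdc1, a plasma cell surface marker, was at 121 and 102 against 64.4 and 57.04 TPM. Ighg2b was thus higher in the same libraries as Ikzf3, and its part in the Ikzf3 difference was not tested. T and NK markers stayed under 10 TPM in sum, with Klrb1c the most abundant and Cd3e, Cd3g, Cd4, Cd8a and Ncr1 listed at 0.

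The genes through which Ikaros factors act were examined next. Among NuRD subunits and other co-repressors, 16 of 18 genes were tested. None passed (1 had an unadjusted limma p under 0.05), 3 were higher in both Dido1∆E16 libraries and none was lower in both, against 27.1% and 15.6% of all gene sums tested. The median log2 fold change was 0.15, against 0.069 over all gene sums tested. Chd3, a NuRD ATPase, had the largest difference, with 81.1 and 57.8 TPM in WT cells, against 144 and 152 TPM in Dido1∆E16 cells (log2 fold change 1.10, SE 0.20, limma adjusted p = 0.224). Mta1, another NuRD subunit, was at 81.2 and 51.8 against 101 and 107 TPM. Chd4, the main ATPase in lymphocytes, overlapped between genotypes (291 and 191 against 277 and 337 TPM). Mta2, the most abundant, was at 422 and 337 against 368 and 354 TPM. Mbd3 and Hdac1 had the most negative values (log2 fold changes -0.14 and -0.11), and both overlapped between genotypes.

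All 22 pre-B genes known as targets of Ikaros or Aiolos were tested. None passed (5 had an unadjusted limma p under 0.05), 8 were higher and 2 lower in both Dido1∆E16 libraries, and the median log2 fold change was 0.20. Over all gene sums tested, 27.1% were higher and 15.6% lower in both, and 11.7% had an unadjusted limma p under 0.05. The largest differences were those of Vpreb1 and Vpreb2, surrogate light chain genes that Aiolos and Ikaros are known to silence. Vpreb1 was at 108 and 40.9 TPM in WT cells, against 1222 and 738 TPM in Dido1∆E16 cells (log2 fold change 3.81, SE 0.55, limma adjusted p = 0.191). Vpreb2 was at 27.1 and 8.76 against 382 and 168 TPM (log2 fold change 3.94, SE 0.68, limma adjusted p = 0.217). These 2 genes, with Dntt, Igll1 and Il7r, are also in the pro-B and large pre-B list above. Irf4, a factor of pre-B differentiation, was lower in both Dido1∆E16 libraries (478 and 628 against 442 and 369 TPM, log2 fold change -0.44, SE 0.19, limma adjusted p = 0.505). Rag2 was at 282 and 165 against 183 and 176 TPM, and Cd79b, the most abundant of the list, at 3393 and 4458 against 4324 and 4379 TPM.

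The cereblon ubiquitin ligase takes Ikaros and Aiolos as substrates when bound by thalidomide analogues. Its 5 genes were all tested. None passed, against 0.0505% of all gene sums, and none had an unadjusted limma p under 0.05, against 11.7%. In both Dido1∆E16 libraries 1 gene was higher and 1 lower, against 27.1% and 15.6% of all gene sums, and the median log2 fold change was 0.11, against 0.069. Cul4a, a scaffold, was at 36.1 and 28.3 TPM in WT cells, against 40.2 and 42.8 TPM in Dido1∆E16 cells. Cul4b had a log2 fold change of 0.16 with overlapping genotypes. Rbx1, the RING subunit, was at 36.4 and 40.9 against 34.0 and 28.97 TPM. Crbn, the substrate receptor, was at 53.6 and 45.0 against 39.1 and 52.6 TPM, and Ddb1, the most abundant, at 263 and 198 against 254 and 240 TPM.

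**Figure D3:**
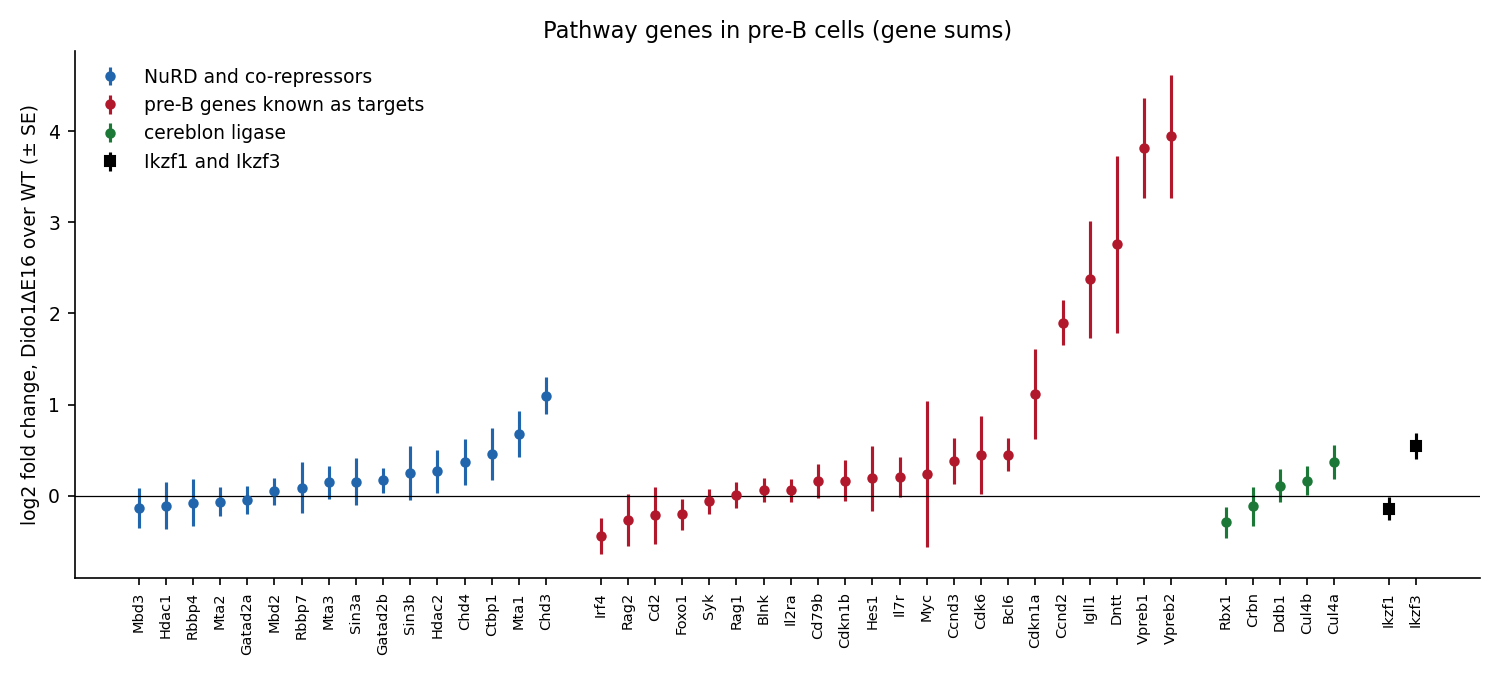
Log2 fold change (Dido1∆E16 over WT, limma on log2(TPM + 1), bars are SE) of co-repressor genes, target genes and cereblon ligase genes, with Ikzf1 and Ikzf3 at the right. Values of Vpreb1 and Vpreb2 lie near 4 and that of Chd3 at 1.10, while most other genes lie within 0.5 of 0, and none passed the test.

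The gene sums most like each member were sought by the root mean square difference of centred log2(TPM + 1) over the 4 pre-B libraries. For Ikzf3 they were Chac2 (0.0217), Tmem159 (0.0219) and H2-DMa (0.0263). For Ikzf1 they were Heg1 (0.0109), Tmod3 (0.0121) and Bnip3l (0.0168). For Ikzf5 no gene came close, and the nearest were Dmrt3 (0.581), Tmem88 (0.591) and Gm14137 (0.647). With 4 libraries, likeness of this kind is a description only.

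Accessible regions in LSK cells were called as peaks by a pair of programs, MACS2, which scores each peak by its strength over background, and HOMER. Ikzf1 and Ikzf2 were rich in accessible regions, with more WT peaks than 98.2% and 94.7% of genes, and both had fewer MACS2 peaks in Dido1∆E16 cells, as had most genes with many peaks. At Ikzf1, MACS2 called 7 and 15 peaks in the WT libraries (replicates 1 and 2) and 5 and 3 in the Dido1∆E16 libraries. Ikzf2 had 5 and 10 in WT libraries and 2 in each Dido1∆E16 library. The genotypes did not overlap at either gene, with p = 0.333 for each by the same exact permutation test. Fewer peaks in both Dido1∆E16 libraries were found for 35.6% of the 17769 genes with a MACS2 peak, and for 81.6% of the 2135 genes with a WT mean of at least 5 peaks. Peak totals moved with these numbers. They were 27352 and 57739 in WT cells, against 13208 and 16329 in Dido1∆E16 cells, from 10249256, 52050898, 22533077 and 44633938 tags. WT replicate 1 thus had the fewest tags and yet more peaks than either Dido1∆E16 library, and the part of these totals in the result was not tested. Per 10000 peaks, Ikzf1 had 2.56 and 2.60 in WT cells, against 3.79 and 1.84 in Dido1∆E16 cells. Ikzf2 had 1.83 and 1.73 against 1.51 and 1.22. When each library gave its 13208 best-scoring peaks, Ikzf1 had 4 and 2 in WT cells, against 5 and 2 in Dido1∆E16 cells, and the genotypes overlapped.

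HOMER gave overlapping genotypes, with 7 and 20 peaks for Ikzf1 in WT cells, against 5 and 8 in Dido1∆E16 cells, and 4 and 14 against 2 and 4 for Ikzf2. Fewer HOMER peaks in both Dido1∆E16 libraries were found for 19.5% of genes, and for 52.6% of those with a WT mean of at least 5. Ikzf3 and Ikzf4 had a single MACS2 peak each, in WT replicate 2, and Ikzf3 had no HOMER peak. Hardly any accessible region was thus called at the Aiolos gene in LSK cells of either genotype. Ikzf4 had 1 HOMER peak in each WT library and none in Dido1∆E16 libraries. No peak carried the symbol Ikzf5, but its first exon lay within a promoter peak assigned to the neighbour Acadsb in all 4 libraries. The MACS2 scores of that peak were 80 and 147 in WT cells, against 55 and 46 in Dido1∆E16 cells, so that the start of Ikzf5 was accessible in both genotypes.

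**Figure D4:**
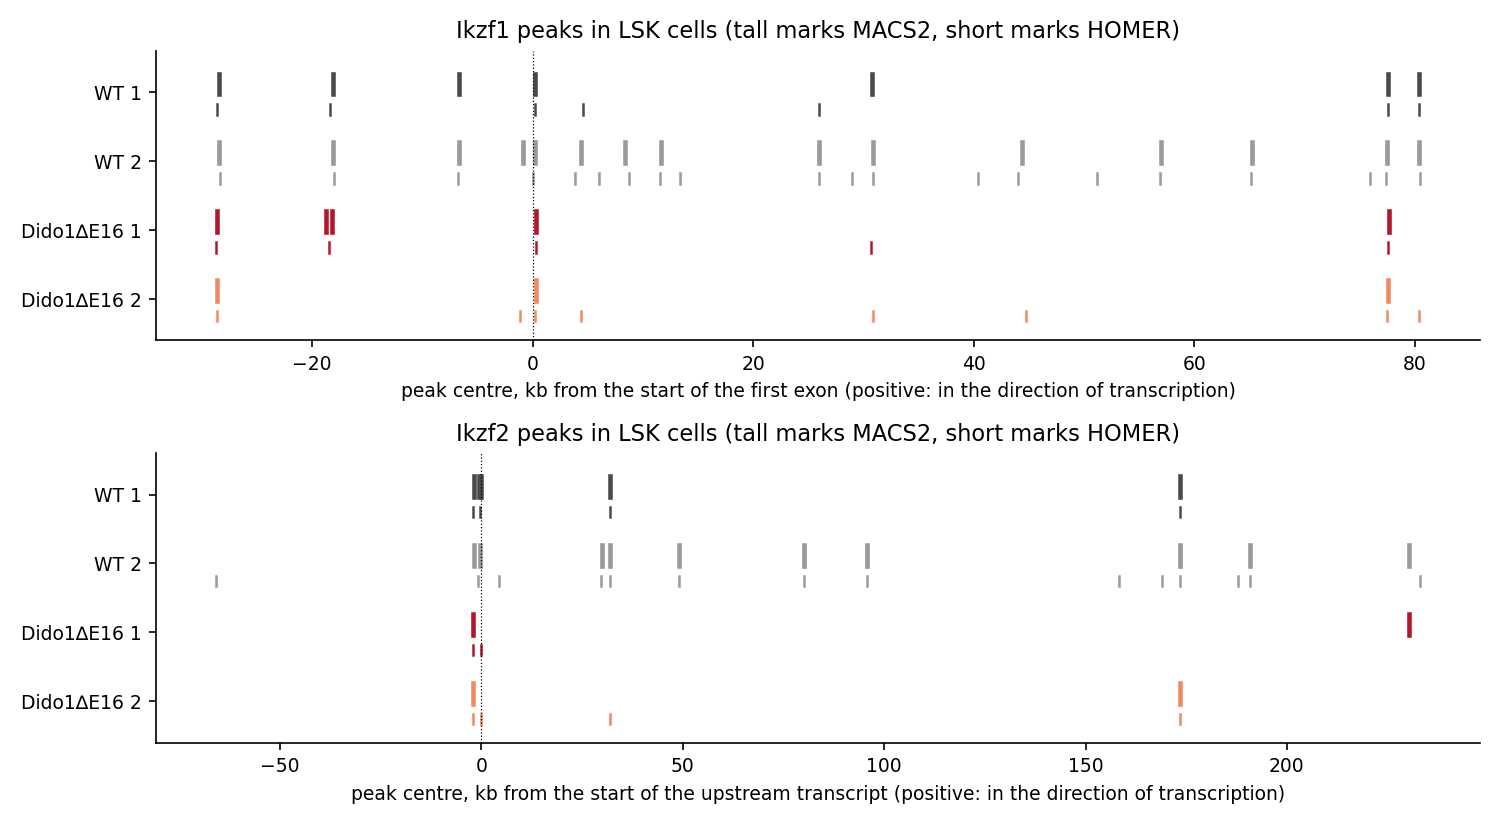
Centres of the peaks assigned to Ikzf1 (top) and Ikzf2 (bottom) in the 4 LSK libraries, in kb from a transcript start, with tall marks for MACS2 and short marks for HOMER. WT replicate 2 has the most peaks at both genes (15 and 10 by MACS2), and the marks left in both Dido1∆E16 libraries lie at the Ikzf1 start, far upstream and in its last intron, just upstream of Ikzf2 and, by HOMER alone, in intron 3 of Ikzf1 and at the Ikzf2 start.

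Both WT libraries shared 7 MACS2 regions at Ikzf1 and 5 at Ikzf2. Of these, 3 of the 7 and 3 of the 5 had no overlapping MACS2 peak in Dido1∆E16 cells. Over all 26327 shared WT regions the share without a Dido1∆E16 peak was 43.7%. A peak remained at 85.0% of promoters, 36.7% of intronic and 40.3% of distal intergenic regions. Regions were also grouped by annotation and by 5 classes of WT score. The shares without a peak in the groups of the 12 regions summed to 6.01, and 6 of the 12 had none. With a missing peak counted as 0, the Dido1∆E16 scores lay below both WT scores in 11 of the 12 regions and in 78.0% of all shared regions.

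At Ikzf1 the promoter region (chr11:11685915-11686389) kept a peak in every library, with MACS2 scores of 39 and 78 in WT cells, against 36 and 24 in Dido1∆E16 cells. The region far upstream (chr11:11657106-11657793), of which the core is printed above, scored 48 and 91 against 20 and 18. The intron 7 region that was kept (chr11:11763222-11763732) scored 62 and 102 against 43 and 32. In these 3 regions the Dido1∆E16 scores lay below both WT scores, as they did in 57.2% of the 9101 shared regions with a peak in both Dido1∆E16 libraries. The other intron 7 region (chr11:11766188-11766529) scored 42 and 87 in WT and had no MACS2 peak in Dido1∆E16 cells, although HOMER called it in Dido1∆E16 replicate 2. The intron 3 region (chr11:11716563-11716762) scored 23 and 49 in WT, and HOMER called it in both Dido1∆E16 libraries. The region at chr11:11679112-11679471 was weak in WT (11 and 19) and had no Dido1∆E16 peak by either program. The region at chr11:11667671-11668055 scored 24 and 63 in WT, 32 in Dido1∆E16 replicate 1, above the lower WT score, and had no peak in replicate 2.

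At Ikzf2 the promoter itself lost its MACS2 peaks. Its start (chr1:69687082-69687335) scored 56 and 37 in WT, and the part upstream of it (chr1:69687589-69687950) scored 18 and 37. WT replicate 2 spans both with 1 peak. Of promoter regions in the same classes of score, 16.7% and 62.9% had no Dido1∆E16 peak. HOMER called 151 bases at the start in each Dido1∆E16 library, against 860 and 2605 bases in WT libraries, and nothing at the upstream part. The region farther upstream (chr1:69688869-69689349) was kept and scored 56 and 92 in WT cells, against 37 and 36 in Dido1∆E16 cells. The intron 3 region (chr1:69655006-69655314) scored 56 and 48 in WT and had no MACS2 peak in Dido1∆E16 cells, although HOMER called it in Dido1∆E16 replicate 2. The intergenic region beyond the 3′ end (chr1:69513538-69513914) scored 50 and 83 in WT, 19 in Dido1∆E16 replicate 2, and had no peak in replicate 1.

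**Figure D5:**
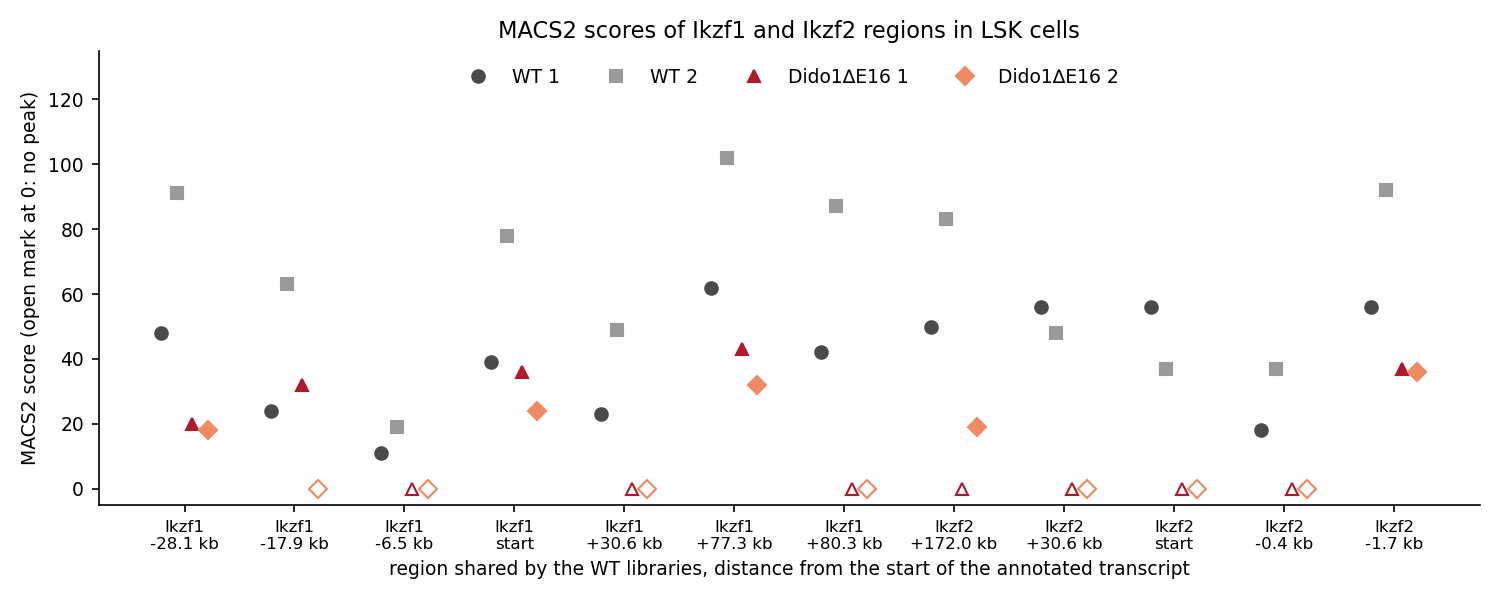
MACS2 scores of the 12 regions shared by the WT libraries at Ikzf1 and Ikzf2, with each symbol an LSK library and open symbols at 0 where no peak was called. Apart from the second Ikzf1 region from the left, every Dido1∆E16 symbol lies below both WT symbols, as in 78.0% of all shared regions, and 6 regions have 2 open symbols.

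Tag counts of the authors were available for regions that they had listed for a difference between genotypes, so that the values below describe a selection and were not tested. The lists held 5231 and 8540 regions, of which 5212 and 8534 were lower in Dido1∆E16 cells, with median differences of -0.92 and -0.93 on the log2 scale of the lists. They included 7 regions of Ikzf1, 4 of Ikzf2 and 1 of Ikzf4, counted over both lists and partly overlapping. The Ikzf2 promoter (chr1:69687104-69687916) had log2 tag values of 6.88 and 6.37 in WT cells, against 5.65 and 5.59 in Dido1∆E16 cells. The Ikzf1 promoter (chr11:11685114-11686768) had 7.68 and 7.47 against 6.90 and 6.72, and the kept intron 7 region (chr11:11763054-11763699) had 6.99 and 6.75 against 6.07 and 5.98. A region over an exon of Ikzf4 (chr10:128636642-128637409) had 5.35 and 5.15 against 4.15 and 3.81. Differences at the Ikzf1 regions ran from -0.75 to -0.89, smaller in size than the medians of the lists, and those at Ikzf2 from -0.79 to -1.001.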

How the data were processed

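Omni-ATAC-seq of LSK cells and RNA-seq of pre-B cells were used, with 2 libraries per genotype and assay. The authors aligned reads to GRCm38/mm10 (BWA 0.7.15 and other tools are named in the submitters' processing notes), called the peaks of each library with both MACS2 and HOMER, and annotated them with ChIPseeker. Each peak in the deposited MACS2 files has a score. The deposited lists of differential regions hold log2 tag counts per library, whose scaling is not given in the sources used here. Their fold changes and p-values, and those of the authors' tables of transcripts, were not used. The deposited StringTie files hold TPM, FPKM and coverage. Depth is known only as summed coverage, 1581 and 1121 megabases for WT replicates 1 and 2, and 1635 and 1174 for Dido1∆E16.

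Transcripts took the symbols of the authors (30126 of 63924), completed by GENCODE vM21 genes sharing at least 50% of exonic bases on the same strand (26260 more). Where both existed, 97.0% matched. Gene sums and transcripts with a mean of at least 1 TPM were fitted as log2(TPM + 1) by genotype with limma 3.58.1 (R 4.3.3, eBayes with trend), with Benjamini-Hochberg adjustment over all features. Fold changes are on that scale and understate the change of low genes. Exon coverage was brought to the TPM scale with 1 factor per library. Regions were intersected with bedtools 2.31.1 at an overlap of 1 bp, and sequences read with samtools 1.23.1. The fit and the overlaps were tested on simulated data. Shared replicate numbers did not pair the libraries.

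Named were all 5 members, their transcripts of at least 1 TPM, their regions shared by the WT libraries, Dido1, and in each gene list the 2 genes with the largest rise, the 2 with the largest fall and the most abundant, plus the 3 gene sums most like each member. Chd4, Ighg2b and Sdc1 were added after their values were seen. A further small pre-B marker is not reported here, and the list is given without it. Members, lists, tests and alternatives were chosen with earlier results of these data known.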

Additional observations from a re-analysis of the deposited data

How the results depend on the processing

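The fold changes of Ikzf1, Ikzf3 and Ikzf5 kept their direction in 12 of 12 alternatives each, and none passed the adjusted p of 0.05 there. The log2 fold change of Ikzf3 ran from 0.41 to 0.91 (limma adjusted p from 0.251 to 0.822), and that of uc007lgm.1 from 0.75 to 1.07 in 10 alternatives. The value of Ikzf1 ran from -0.57 to -0.065 and that of Ikzf5 from -6.30 to -1.83. Leaving out each library gave -0.93 to -0.21 for uc007iak.2 and 0.44 to 2.06 for uc007iaj.2. Sign changes were seen only when a library was left out, for uc007ian.1 (-1.07 to 1.37) and uc007iap.1 (-0.31 to 7.64).

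The number of gene sums called was 6. By limma it was 0 with a pseudocount of 0.1, 0 without a filter and 0 with the replicate block (1355, 1640 and 1070 gene sums at an unadjusted p under 0.05), 87 without a trend and 11 with the most abundant transcript only, an alternative added after seeing the data. Leaving out each library gave 0 in every case. The number of transcripts called was 25. It was 4 with a pseudocount of 0.1, 3 without a filter, 97 without a trend and 0 with the replicate block. Leaving out each library gave 0 to 532, with 480 and 532 without Dido1∆E16 replicates 1 and 2. Replicate differences correlated at 0.0463 over gene sums and 0.0707 over transcripts between genotypes, so that the replicate block is not a pairing by design.

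In LSK cells the difference in peak number (Dido1∆E16 minus WT) was -7.0 for Ikzf1 and -5.5 for Ikzf2. With the same number of best-scoring peaks it was 0.5 and -0.5. Leaving out each library gave -11.0 to -3.0 for Ikzf1 and -8.0 to -3.0 for Ikzf2. Shared WT regions without a Dido1∆E16 peak were 3 of 7 at Ikzf1 and 3 of 5 at Ikzf2, against 43.7% over all shared regions. With HOMER peaks they were 1 of 7 and 0 of 4, against 29.3% over all. With the same number of best-scoring peaks they were 0 of 2 and 0 of 1, against 13.3% over all, so that few regions remained to compare. Leaving out each library gave 3 to 11 such regions at Ikzf1 and 3 to 7 at Ikzf2. The highest were those without WT replicate 1, 11 of 15 and 7 of 10, against 69.9% over all regions. A fit that leaves out a library takes the spread of the lone library from the others. With 2 libraries per genotype the exact test cannot go under 0.333, so that no peak number could pass a threshold.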
